A study of Mus musculus with 25 samples.

Results

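Ly6c2, Plac8, Hp and Nr4a1 are 4 genes used to recognise blood monocytes, and their rows were taken by symbol from the 22439 genes counted in myeloid cells of the injured mouse spinal cord. All 4 were present. The data are droplet-based 3′ single-cell RNA counts of 30958 cells in 25 libraries, each made from cord tissue of 1 to 3 pooled mice (5 mm of lesion in the injured ones), so the library is the replicate; nothing in the labels says that libraries of a group came from separate operations, and p-values measure the spread between these libraries. The groups are laminectomy alone (Ctrl, 2 libraries), in which bone over the cord is opened without a lesion, and lesioned cords taken 1 day after spinal cord injury (D1, 5 libraries) or at 2 days (D2, 4 libraries), 3 days (D3, 7), 10 days (D10, 5) or 21 days (D21, 2). All mice carried Cx3cr1CreERT2, an inducible Cre recombinase at the locus of the chemokine receptor Cx3cr1, and every library was gated on YFP. Mice of strain Cx3cr1CreERT2:R26tdTomato also carried a red reporter (RFP) that Cre switches on: their cells were sorted as resident (RFP+/YFP+, 5 libraries) or infiltrating (RFP-/YFP+, 7 libraries). Mice of strain Cx3cr1CreERT2 without the reporter gave mixed libraries of all YFP+ cells (12 libraries). Ages are not given in the sources used here. Libraries are named by time, sort and replicate (D3_mixed 3). For 1 library at D3 the title and the authors' deposited code say infiltrating, while the sort label says RFP+/YFP+. This library is called D3_conflict 1 and entered no test between groups. It is among the libraries described within cell types and clusters, where some counts are also given without it.

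Monocytes leave the bone marrow in a classical form, marked in mice by the surface protein Ly6C and drawn into damaged tissue through the receptor Ccr2, and part of them convert in blood into a non-classical form that patrols vessels, loses Ly6C and depends on Nr4a1. Once in tissue, classical monocytes lower their monocyte genes as they become macrophages. Microglia, the macrophages of the cord itself, come from the yolk sac and not from monocytes. Ly6c2 encodes a Ly6C protein anchored to the outer membrane by a lipid. Plac8 encodes a small cysteine-rich protein of monocytes, granulocytes and plasmacytoid dendritic cells. Hp encodes haptoglobin, which binds free haemoglobin and is stored in neutrophil granules. Nr4a1 (Nur77) encodes an orphan nuclear receptor that is also an immediate early gene, induced within minutes to hours in many stimulated cells.

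On GRCm38 with GENCODE M21, Ly6c2 lies on chromosome 15 from 75108158 to 75111970 (minus strand), Plac8 on chromosome 5 from 100553725 to 100572245 (minus strand), Hp on chromosome 8 from 109575128 to 109579172 (minus strand) and Nr4a1 on chromosome 15 from 101254269 to 101274795 (plus strand). All are protein-coding, and no other annotated gene overlaps them. The paralog Ly6c1, a Ly6C protein of vessel endothelium, lies on chromosome 15 from 75044018 to 75048830. Of the 91-base words in the longest coding transcript of Ly6c2, 18.0% also occur in Ly6c1, and in the last 400 bases, where 3′ reads fall, 11% do. No 91-base word of Plac8, Hp or Nr4a1 occurs in another gene, so the sharing concerns Ly6c2 alone. Ly6c1 itself was counted at 0.32 CPM (UMI count of a gene per 1000000 UMIs of the same cells) or less in each of the 4 deposited cell types, against 258 CPM of Ly6c2 in macrophages.

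The 250 bases before the annotated start are shown for the 3 members that have a RefSeq promoter entry (GRCm38.p6), and for Ly6c1, the hardly detected neighbour of Ly6c2, because Ly6c2 and Plac8 followed each other over the clusters and Nr4a1 had another pattern. Capitals mark the matches, on either strand, to 5 motifs that were picked after the sequences had been read: GAGGAAGT (a core that PU.1 and other ETS factors bind), TGCGTCA (a variant of the cyclic AMP response element), TGACGTCA (that element's palindrome), AAAGGTCA (the site that NR4A proteins bind as monomers) and CCAAT (the CCAAT box). A match is a description of letters only.
Ly6c2, chr15:75111972-75112221, minus strand: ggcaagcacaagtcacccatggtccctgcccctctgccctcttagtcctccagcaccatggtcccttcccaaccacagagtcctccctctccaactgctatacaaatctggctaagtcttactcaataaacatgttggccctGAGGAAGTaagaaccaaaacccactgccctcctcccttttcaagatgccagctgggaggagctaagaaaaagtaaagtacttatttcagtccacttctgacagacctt
Ly6c1, chr15:75048838-75049087, minus strand: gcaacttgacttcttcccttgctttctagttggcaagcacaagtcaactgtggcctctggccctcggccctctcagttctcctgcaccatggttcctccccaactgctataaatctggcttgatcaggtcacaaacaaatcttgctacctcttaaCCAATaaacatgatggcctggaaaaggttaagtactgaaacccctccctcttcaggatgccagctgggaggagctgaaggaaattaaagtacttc
Plac8, chr5:100572206-100572455, minus strand: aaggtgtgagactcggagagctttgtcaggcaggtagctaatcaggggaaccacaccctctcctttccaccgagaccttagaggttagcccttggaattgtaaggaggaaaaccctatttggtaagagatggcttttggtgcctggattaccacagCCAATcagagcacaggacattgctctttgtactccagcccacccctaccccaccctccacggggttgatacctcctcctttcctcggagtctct
Nr4a1, chr15:101266596-101266845, plus strand: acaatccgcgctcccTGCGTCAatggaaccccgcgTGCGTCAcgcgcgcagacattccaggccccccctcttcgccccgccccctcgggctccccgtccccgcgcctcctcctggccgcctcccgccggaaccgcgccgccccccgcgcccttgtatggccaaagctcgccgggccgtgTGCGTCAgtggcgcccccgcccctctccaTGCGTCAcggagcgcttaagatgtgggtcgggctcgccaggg
GAGGAAGT stood once in the Ly6c2 window, at -108 to -101 from the start, and not in the Ly6c1 window; 2.44% of the 32851 windows of this length held it. TGCGTCA stood 4 times in the Nr4a1 window, first at -235 and last ending at -36. Of all 32851 windows 1.75% held TGCGTCA and 1 held it 4 or more times, which is that of Nr4a1. CCAAT, found in 33.8% of windows, stood once in those of Plac8 and Ly6c1. TGACGTCA (1.55% of windows) and AAAGGTCA (1.34%) were in none of the 4 windows. The Nr4a1 window was 74.4% G and C, against a median of 52.4% over all windows and 50% for Ly6c2. The start used for Nr4a1 is a RefSeq one inside the longer GENCODE gene.

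The authors' table assigns each cell to 1 of 4 cell type codes and 16 clusters without names. A marker was counted as high where it reached 20 CPM and, after adding 5 CPM on each side, at least 2 times its level in the rest of the cells. By that rule all 9 microglia markers were high in code 1 (13289 cells), here named microglia, and 6 of 10 classical monocyte markers in code 2 (12841 cells), here named macrophages with monocytes included. For code 3 (2712 cells) the dendritic list gave 6 of 8, and for code 4 (2116 cells) the neutrophil list gave 12 of 12, so these are named dendritic-like and neutrophil-like cells. Libraries held 486649 to 33204422 UMIs, and of 30831 barcodes 127 occurred in 2 libraries. Median UMIs per cell were 9144 in macrophages, 11361 in dendritic-like cells, 3062 in microglia and 2154 in neutrophil-like cells. The clusters were made from all genes, the 4 members included, so levels between cell types and clusters are described without a test.

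The 4 genes were found outside microglia. Over the summed cells, macrophages held Ly6c2 at 258 CPM, Plac8 at 666 CPM, Hp at 278 CPM and Nr4a1 at 12.6 CPM. Microglia held them at 0.93, 2.58, 1.57 and 0.85 CPM, levels of a few CPM that cannot be told apart from free RNA in the droplets. Dendritic-like cells had Plac8 at 1046 CPM, Ly6c2 at 202 CPM and Hp at 22.9 CPM. By library, Plac8 was higher in dendritic-like cells than in macrophages in 7 of the 10 libraries with at least 20 cells of both, D3_conflict 1 among the 7. It was lower in D3_infiltrating 1 (1056 against 1095 CPM), D10_infiltrating 2 (170 against 473 CPM) and D21_infiltrating 1 (502 against 1070 CPM). Neutrophil-like cells were the reverse for Hp, at 1092 CPM, the highest of the 4 cell types in these sums but not in every library. They had Plac8 at 96.9 and Ly6c2 at 110 CPM. So Hp ran with neutrophils and monocytes, and Plac8 with dendritic-like cells and monocytes; neither was particular to monocytes.

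The share of cells with at least 1 UMI was compared after thinning every cell to 1000 UMIs, since cell depth differed. At that depth 13.6% of macrophages held Ly6c2, 23.1% Plac8, 15.2% Hp and 1.22% Nr4a1. In microglia the same shares were 0.111%, 0.290%, 0.188% and 0.078%, which serve as the background level for these genes. Without thinning, 34.9% of macrophages held Ly6c2 (95% Wilson interval 34 to 35.7%) and 0.331% of microglia did (0.247 to 0.444%); intervals cover counting error only. Dendritic-like cells held Plac8 in 41.7% and Hp in 1.49% at 1000 UMIs, and neutrophil-like cells held Hp in 35.0% and Plac8 in 7.21%. Cells under 1000 UMIs were left out: 30 microglia, 57 macrophages, 15 dendritic-like and 28 neutrophil-like cells.

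In neutrophil-like cells Hp varied widely between libraries. Hp stood at 1406 CPM in D1_infiltrating 1, 868 CPM in D1_infiltrating 2, 3685 CPM in D2_infiltrating 1, 301 CPM in D2_mixed 2 and 375 CPM in D3_conflict 1. The value of D3_conflict 1, from 897 neutrophil-like cells, was below the 399 CPM over all cells of that library. The D2_infiltrating 1 library was thus the highest and also had the highest Ly6c2 of these libraries, 279 CPM against 52.0 to 92.0 CPM in the other 4. No other library held 20 neutrophil-like cells. The D2 values lay on both sides of the D1 pair, so D1 and D2 differed by less than the spread within D2.

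Dendritic-like cells reached 20 in 10 libraries, from D1 to D21. Their Plac8 ran from 170 CPM in D10_infiltrating 2 through a median of 683 to 1419 CPM in D1_infiltrating 1. Their Ly6c2 ran from 22.5 CPM, again in D10_infiltrating 2, through a median of 171 to 255 CPM in D3_conflict 1. Plac8 exceeded Ly6c2 in each of these 10 libraries. Hp lay between 2.50 and 107 CPM and Nr4a1 between 1.99 and 8.22 CPM, both low in each of these libraries.

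Among macrophage clusters Ly6c2, Plac8 and Hp were highest in clusters 10 to 13, and Nr4a1 in clusters 13 and 12. Cluster 12 (2043 cells) had 8 of 10 classical monocyte markers high, with Vcan and Ifitm6 among its 10 leading genes, and is called classical-monocyte-like; Hp itself is another of those leading genes. Cluster 13 (234 cells) had all 10 non-classical markers high, 8 of them among its 10 leading genes (Ear2, Ace, Cd300e, Adgre4, Treml4, Pglyrp1, Eno3 and Spn), and is called non-classical-monocyte-like; Nr4a1 is in that leading set too, and 5 of the classical markers were also high in it. Cluster 11 (4504 cells), led by the chemokine genes Cxcl3, Ccl7 and Cxcl10, had 4 classical markers high, none among its leading genes, and stays unnamed. Cluster 10 (182 cells) is described by library further on, since its cells differed between libraries. Clusters 8 and 9 carry the macrophage code. Cluster 8 stays unnamed: 3 of the 4 erythroid markers (Hbb-bs, Hba-a1 and Hba-a2) were among its 10 leading genes, beside 1 classical monocyte marker (Fn1) and 1 border macrophage marker (Mrc1), and no maturation marker was high in it. Cluster 9, with Gpnmb, Fabp4 and Fabp5 among its leading genes, had 3 of 10 maturation markers high and 1 classical marker (Mgst1).

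Summed Ly6c2 was 588 CPM in cluster 12, 523 CPM in cluster 10, 518 CPM in cluster 13, 316 CPM in cluster 11, 109 CPM in cluster 8 and 18.0 CPM in cluster 9. Plac8 was highest in cluster 13, at 2805 CPM, followed by 2253 CPM in cluster 12, 1073 CPM in cluster 10, 535 CPM in cluster 11, 154 CPM in cluster 8 and 4.67 CPM in cluster 9. Hp was at 1224 CPM in cluster 13, 1057 CPM in cluster 12, 276 CPM in cluster 10, 176 CPM in cluster 11, 67.0 CPM in cluster 8 and 11.1 CPM in cluster 9. These 3 genes were therefore high in both monocyte-like clusters and low in the Gpnmb-led cluster. Nr4a1 stood apart, with 208 CPM in cluster 13, 42.9 CPM in cluster 12, 4.71 CPM in cluster 11, 3.37 CPM in cluster 8, 1.55 CPM in cluster 10 and 0.54 CPM in cluster 9. Cluster 14 gave 11.6 CPM from 4 UMIs (95% counting interval 3.15 to 29.6 CPM), with none in its 2 libraries of at least 20 cells, so its place in this order is not known.

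**Figure D1:**
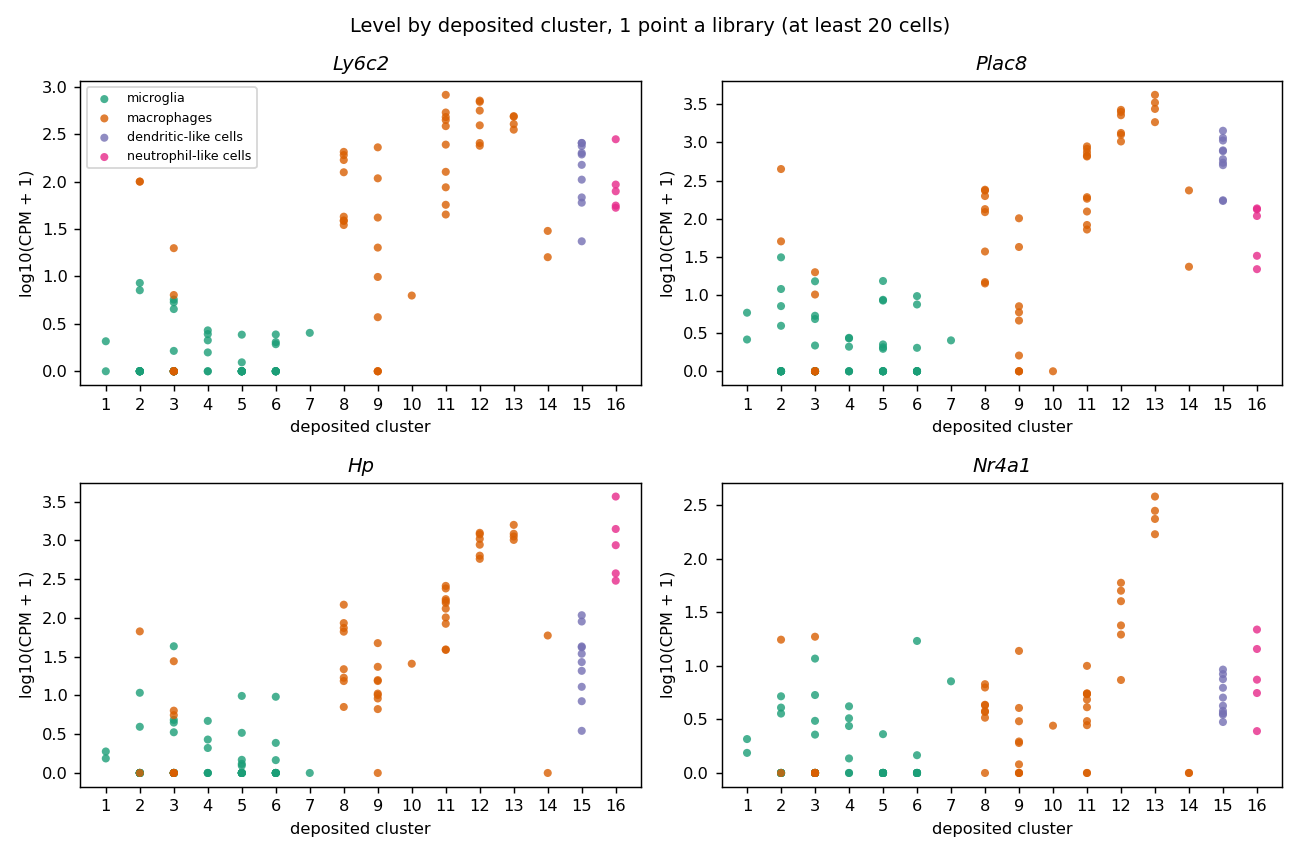
Level of each gene, as log10(CPM + 1), in each deposited cluster; every point is 1 library with at least 20 cells of that cluster, coloured by cell type. Ly6c2, Plac8 and Hp are high in clusters 11 to 13, Plac8 also in the dendritic-like cluster 15 (median 683 CPM, against 421 CPM in cluster 11), Hp also in cluster 16, and Nr4a1 reaches its highest points in cluster 13; for cluster 10 the single point is D3_mixed 3.

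Libraries differed within these clusters. In cluster 12 Ly6c2 was 559 CPM in D1_infiltrating 1, 238 CPM in D1_infiltrating 2, 254 CPM in D2_infiltrating 1, 391 CPM in D2_mixed 2, 692 CPM in D3_infiltrating 1 and 713 CPM in D3_conflict 1. D1_infiltrating 2 and D2_infiltrating 1 were the low pair, and the replicates of D1 lay on opposite sides of the D2 values. Cluster 12 Plac8 had the same low pair, 1027 and 1260 CPM, with D2_mixed 2 close above them at 1328 CPM, against 2266 CPM in D1_infiltrating 1, 2665 CPM in D3_infiltrating 1 and 2510 CPM in D3_conflict 1. In cluster 11 the pair was low again, with Ly6c2 at 86.0 and 55.9 CPM where D1_infiltrating 1 had 445 and D3_infiltrating 1 had 479 CPM. D1_infiltrating 1, D1_infiltrating 2, D2_infiltrating 1 and D3_conflict 1 shared a sequencing pool; the part of the pool in these differences was not tested. Cluster 13 reached 20 cells in 4 libraries, and its Nr4a1 there was 234 CPM in D1_infiltrating 1, 379 CPM in D3_infiltrating 1, 168 CPM in D3_conflict 1 and 278 CPM in D10_infiltrating 1. The lowest of these exceeded the highest cluster 12 value, 58.5 CPM in D3_infiltrating 1. Both clusters reached 20 cells in 3 libraries, D1_infiltrating 1, D3_infiltrating 1 and D3_conflict 1. In these Ly6c2 was lower in cluster 13 each time, at 403, 489 and 352 CPM against the 559, 692 and 713 CPM of cluster 12. Plac8 and Hp were each higher in cluster 13 in 2 of the 3. The library with lower Plac8 in cluster 13 was D1_infiltrating 1. For Hp it was D3_conflict 1, so the mixed order of Hp rests on that library alone.

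Within a cluster and library, cells that held Ly6c2 more often held Plac8. In cluster 11 of D1_infiltrating 1, at 1000 UMIs, 53.9% of cells with Ly6c2 also held Plac8, against 28.5% of cells without it. The share was higher in cells with Ly6c2 in each of the 6 libraries with at least 100 cells of cluster 11, and in each of the 5 such libraries of cluster 12, where it was 81.1% against 71.4% in D1_infiltrating 1. Hp was ordered the same way in all 11 cases; in D1_infiltrating 1 its shares were 22.8% against 17.3% in cluster 11 and 65.4% against 52.9% in cluster 12. D3_conflict 1 is among these libraries in both clusters, and without it the order held for Plac8 and for Hp in 9 of 9 cases. Nr4a1 was higher in cells with Ly6c2 in 6 of the 11 cases and in 5 of 9 without D3_conflict 1, with shares of 0.168% to 0.933% in cluster 11, near the level of single UMIs.

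Cluster 13 held cells with and without Ly6c2 side by side. Of its 234 cells, 140 had no Ly6c2 UMI, 19 had 1 or 2, and 75 had 3 or more; these limits were set after the counts were seen and cut a range, not a type. The cells without Ly6c2 had Nr4a1 at 334 CPM, Ace (angiotensin-converting enzyme) at 499 CPM, Ear2 (a ribonuclease) at 829 CPM and Cd300e (an activating receptor) at 309 CPM. The cells with 3 or more had Nr4a1 at 101 CPM, Ace at 49.8 CPM, Ear2 at 74.7 CPM and Cd300e at 2.49 CPM. Classical genes were the other way round: Ccr2 was 440 CPM without Ly6c2 and 1352 CPM with it, and F13a1 (a coagulation factor subunit) 78.4 and 889 CPM. Plac8 and Hp stayed high on both sides, with Plac8 at 2136 CPM without Ly6c2 and 3156 CPM with it, and Hp at 804 and 1682 CPM.

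The 2 kinds of cell differed in depth, with median UMI counts of 4927.5 without Ly6c2 and 9789 with 3 or more. Of the 140 cells without Ly6c2, 67 had 5000 UMIs or more. The pattern recurred by library: 10 libraries, from D1 to D21, held at least 3 cells of each kind. Nr4a1 was higher in cells without Ly6c2 in 9 of these 10, with a median of 391 against 58.0 CPM, the exception being D10_mixed 2 (33.4 against 38.0 CPM). Ear2, Eno3, Spn, Pou2f2, Pglyrp1 and Adgre4 were higher in cells without Ly6c2 in 10 of 10. Ccr2 was lower in them in 10 of 10, with medians of 389 and 1435 CPM. Plac8 was lower in 9 and Hp in 8 of the 10. For Nr4a1 the ranges over libraries overlapped, at 33.4 to 577 CPM without Ly6c2 and 0 to 315 CPM with 3 or more. One of the 10 libraries was D3_conflict 1 (36 and 15 cells, Nr4a1 245 and 56.6 CPM). Without it Nr4a1 was higher in cells without Ly6c2 in 8 of 9 libraries, with medians of 421 and 59.4 CPM; Plac8 was lower in 9 of 9, Hp in 7 of 9 and Ccr2 in 9 of 9. The share of cluster 13 cells without Ly6c2 was 60.0% and 66.7% in the infiltrating libraries of D1, 66.7% in D3_infiltrating 1, 61.1% and 53.8% in those of D10, 63.2% in D3_conflict 1, 50% in D2_infiltrating 1 and in D21_infiltrating 1, and 30% in each of D10_mixed 1 and D10_mixed 2 (3 of 10 cells in both).

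**Figure D2:**
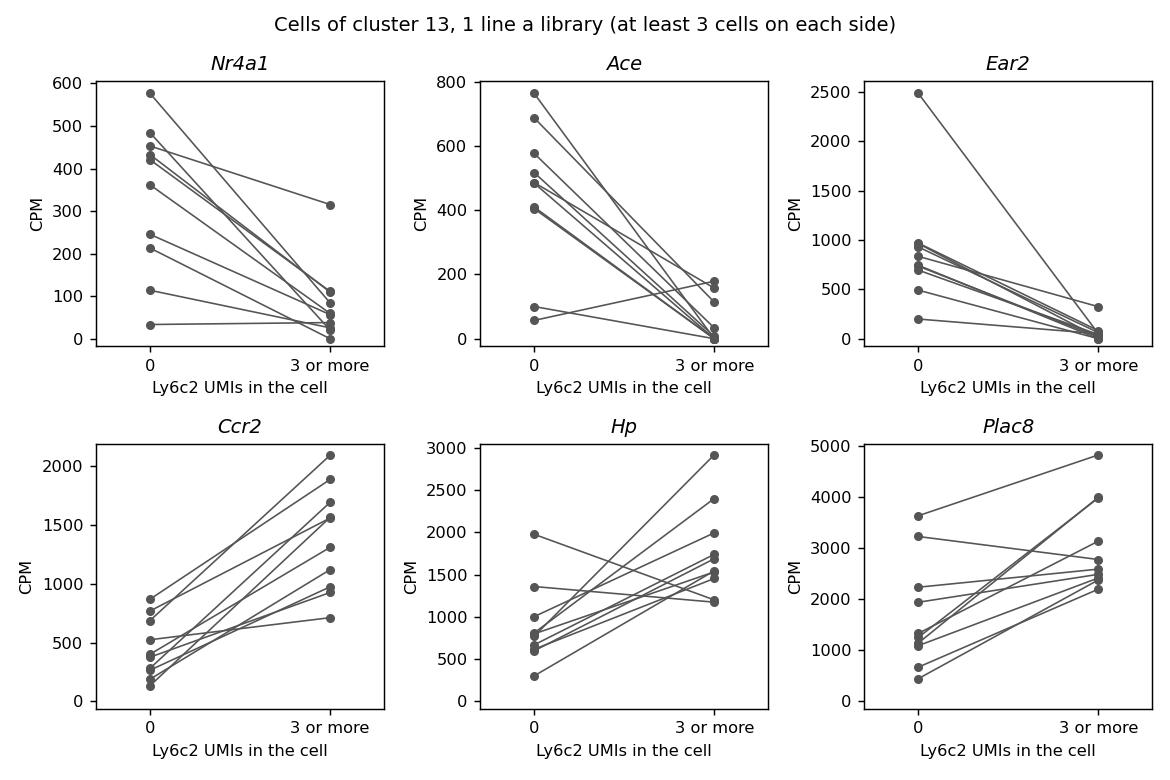
CPM of 6 genes in cluster 13 cells with no Ly6c2 UMI and with 3 or more; each line joins the 2 values of 1 library with at least 3 cells of each kind (10 libraries). Nr4a1, Ace and Ear2 drop along nearly every line, Ccr2 climbs along all 10, and Hp and Plac8 are at 302 CPM or more on both sides.

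Immediate early genes moved with Nr4a1 only in part. The 20 genes of that list, which leaves out Nr4a1, summed to 4648 CPM in cluster 13 and 4916 CPM in cluster 12, above the 3258 CPM of cluster 11. Cluster 14 (118 cells, median 1488 UMIs) had the highest sum of all clusters, 9152 CPM, with the 4 Nr4a1 UMIs given above; neutrophil-like cells had 6489 CPM and Nr4a1 at 8.09 CPM. The related receptors were low, with Nr4a2 highest in cluster 12 (11.2 CPM) and Nr4a3 in the dendritic-like cluster 15 (11 CPM), and neither peaked in cluster 13, where they stood at 3.42 CPM and 0 UMIs.

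Across time, macrophages were compared over the infiltrating and mixed libraries with at least 20 macrophages. Ctrl held no macrophage, so D1 was the reference for all comparisons, which therefore share its libraries. At D1 Ly6c2 was 394 CPM in D1_infiltrating 1, 85.4 CPM in D1_infiltrating 2, 8.47 CPM in D1_mixed 1 and 0 of 411082 UMIs in D1_mixed 3, where a count of 0 allows up to 7.30 CPM. At D2 it was 104 CPM in D2_infiltrating 1, 50.2 CPM in D2_mixed 1 and 167 CPM in D2_mixed 2. At D3 it was 464 CPM in D3_infiltrating 1 and 11.4 CPM in D3_mixed 3. Infiltrating libraries were above mixed ones at D1 and D3, and the ranges of D1, D2 and D3 overlapped. At D10 the order turned: 74.1 and 122 CPM in the infiltrating libraries, 742 and 952 CPM in the mixed ones. At D21 it was 696 CPM in D21_infiltrating 1 and 0 in D21_mixed 1, where 0 allows up to 8.96 CPM.

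**Figure D3:**
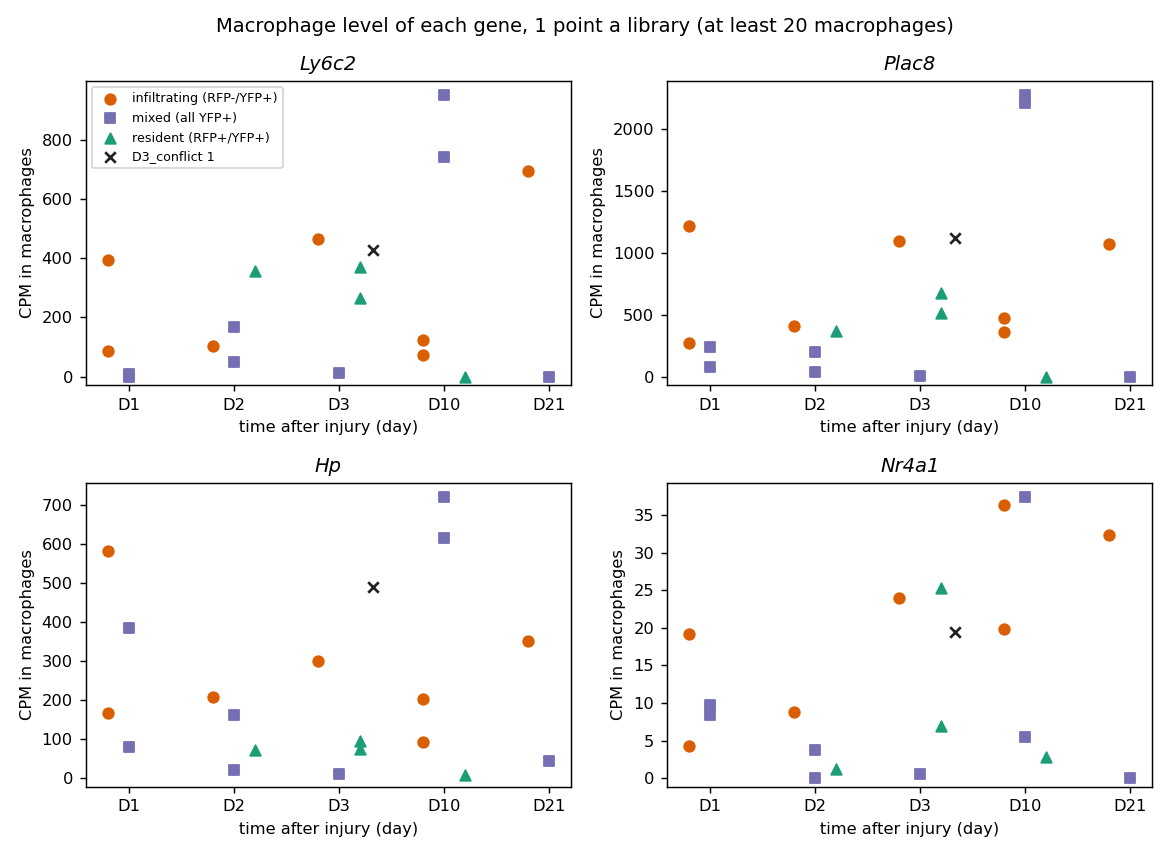
CPM of each gene in the macrophages of each library against the time after injury, with 1 point per library of at least 20 macrophages, shaped and coloured by sort. For Ly6c2 and Plac8 the 2 mixed libraries of D10 are the highest points, while D21_mixed 1 and D10_resident 1 lie at 0.

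Plac8 had the same shape. It was 1213, 269, 242 and 80.3 CPM in the D1 libraries (in the order above), 1095 and 4.17 CPM in D3_infiltrating 1 and D3_mixed 3, 357 and 473 CPM in the infiltrating libraries of D10, 2273 and 2210 CPM in the mixed ones, and 1070 and 0 CPM at D21. Hp was 582, 168, 80.5 and 384 CPM at D1, 300.5 and 12 CPM at D3, 92.2, 203, 615 and 722 CPM at D10, and 353 and 44.8 CPM at D21. Nr4a1 was 19.2, 4.31, 8.47 and 9.73 CPM at D1, 23.9 and 0.544 CPM at D3, 19.8, 36.4, 37.4 and 5.55 CPM at D10, and 32.4 and 0 CPM at D21. For each gene the ranges of D1 and of every later time point overlapped.

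None of the 4 members passed the test between D1 and D3, D10 or D21 (edgeR's quasi-likelihood test, 2-sided, Benjamini-Hochberg adjusted over 8577 genes, threshold 0.05). At D10 against D1 (4 libraries each) the log2 change in edgeR was 1.58 (SE 1.69, adjusted p = 0.57) for Ly6c2, 1.54 (SE 1.56, adjusted p = 0.543) for Plac8, 0.19 (SE 0.96, adjusted p = 0.922) for Hp and 1.24 (SE 0.98, adjusted p = 0.426) for Nr4a1. Of all genes 14.4% passed in that comparison, 7.31% higher and 7.04% lower at D10. At D3 (2 libraries) the adjusted p in edgeR was 0.783 to 0.998, with 0% of genes called by edgeR, 612 genes at an unadjusted p under 0.05 and 5 called by DESeq2. At D21 (2 libraries) the adjusted p in edgeR was 0.720 to 0.967, with 3.56% of genes called, 1.95% higher and 1.61% lower. At D2 (3 libraries) the adjusted p in edgeR was 1.00 for each member, with 0% called, 123 genes at an unadjusted p under 0.05 and 0 called by DESeq2. The standard errors, 0.96 to 1.93 on the log2 scale at D3, D10 and D21, leave changes of several fold undetected. D1 and D10 libraries shared no sequencing pool, and an effect of the pool cannot be told apart from one of time there.

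The mixed libraries alone gave calls that the comparison over both sorts did not. At D3 they gave Plac8 (log2 change -4.68, adjusted p = 0.00171) and Hp (-3.80, adjusted p = 0.00749) in edgeR, with 860 genes (11.5%) called, from D3_mixed 3 as the only D3 library, which the fit takes to vary like the other groups. At D2 they gave Ly6c2 (5.84, adjusted p = 0.00445), with 45 genes (0.602%) called. For D10 against D1, where 1178 genes (15.8%) were called, there were calls in edgeR for Ly6c2 (log2 change 8.21, adjusted p = 2.2e-05), Plac8 (4.0, adjusted p = 0.000186) and Hp (1.62, adjusted p = 0.0472). These levels rested on few cells and UMIs: the D1 mixed libraries held 2 and 0 Ly6c2 UMIs in 28 and 54 macrophages, so the fitted Ly6c2 change is no bound. In D10_mixed 1, 8 cells of cluster 10 held 388 of 456 Ly6c2 UMIs in macrophages (85.1%), and in D10_mixed 2, 12 cells held 668 of 858 (77.9%). In D21_infiltrating 1, 9 cells held 383 of 473 (81.0%). In the comparison over both infiltrating and mixed libraries, clusters 10 and 13 were also left out, an alternative chosen after these shares were seen. Those clusters were picked for holding the D10 UMIs, so the direction of the shift follows from the choice and restates the shares. The log2 change at D10 went from 1.58 to -2.12 for Ly6c2, from 1.54 to -0.84 for Plac8 and from 0.19 to -2.63 for Hp, none of which passed in edgeR (adjusted p = 0.318, 0.753 and 0.0938); Nr4a1 then fell below the expression filter.

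The cells of cluster 10 differed between libraries. In D10_mixed 1 its 8 cells had Ly6c2 at 1192 CPM, Plac8 at 2946 CPM and Hp at 651 CPM, together with Prtn3 (proteinase 3, made in granulocyte and monocyte precursors) at 2451 CPM and Elane (neutrophil elastase) at 657 CPM, and no UMI of the complement gene C1qa. The 12 cells of D10_mixed 2 had Ly6c2 at 1326, Plac8 at 3092 and Prtn3 at 5790 CPM, and the 9 of D21_infiltrating 1 had 1274, 1783 and 2971 CPM, both with no C1qa UMI. The 107 cluster 10 cells of D3_mixed 3, by contrast, had Ly6c2 at 5.29 CPM, no Plac8 UMI, Prtn3 at 2.64 CPM, C1qa at 3748 CPM and Gpnmb at 1901 CPM. The 14 of D3_infiltrating 1 had no Ly6c2 UMI, Plac8 at 43.5, Prtn3 at 7.24 and C1qa at 311 CPM. The 17 of D3_conflict 1 lay between, with Ly6c2 at 182, Plac8 at 289, Prtn3 at 281 and C1qa at 372 CPM. The 5 of D1_infiltrating 1 held progenitor and macrophage genes in the same sum, with Ly6c2 at 203, Plac8 at 632, Prtn3 at 1442, Mpo (myeloperoxidase) at 2085, C1qa at 715 and Gpnmb at 500.5 CPM. Other libraries held fewer than 5 cells of cluster 10. Over all its cells 4 of the 5 granulocyte-monocyte progenitor markers were high, namely Mpo, Elane, Prtn3 and Ctsg, and its other leading genes were of dividing cells (Mki67, Cenpf and histone genes). Nr4a1 gave 0 to 2 UMIs in cluster 10 in each of these libraries. The progenitor list summed to 2423, 6004.5 and 2544 CPM in the macrophages of D10_mixed 1, D10_mixed 2 and D21_infiltrating 1, and to 0 to 53.1 CPM in all other libraries with macrophages; its part in the D10 levels beyond the shares above was not tested.

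At D10 and D21 the cells that held Nr4a1 differed from those that held Ly6c2 in some libraries only. In D10_mixed 1, D10_mixed 2 and D21_infiltrating 1 cluster 10 held most Ly6c2 UMIs but 1, 0 and 0 Nr4a1 UMIs. In D10_infiltrating 1 and D10_infiltrating 2, 36 of 39 and 13 of 15 cells of clusters 10 and 13 were of cluster 13. The pooled shares that follow do not separate these clusters. Clusters 10 and 13 together held 88.8% of the 80 macrophage Nr4a1 UMIs in D10_infiltrating 1, all 22 in D10_infiltrating 2, all 23 in D10_mixed 1, all 5 in D10_mixed 2 and 81.8% of 22 in D21_infiltrating 1, while making up 7.10% to 34% of the macrophages. In D1_infiltrating 1 and D3_infiltrating 1 they were 2.36% and 3.27% of the macrophages. They held 13.7% and 23.2% of Nr4a1 UMIs there, and 1.44% and 1.53% of Ly6c2 UMIs. Clusters 11 and 12 were 76.3% and 79.6% of the macrophages of these libraries and held 91.5% and 89.9% of Ly6c2 UMIs. They held 87.5% in D1_infiltrating 2 (76.3% of macrophages), 76.4% in D2_infiltrating 1 (71.1%) and 90.6% in D2_mixed 2 (67.3%). Not every early library was of this kind. In D3_mixed 3 clusters 11 and 12 were 1.92% of the macrophages and held 10.7% of Ly6c2, 44.6% of Plac8, 9.06% of Hp and 16.7% of Nr4a1 UMIs, in D2_mixed 1 they held 33.3% of Ly6c2 UMIs, and in D1_mixed 1 none of its 2. In D3_resident 1 and D3_resident 2 they held 63.2% and 64.1% of Ly6c2 UMIs, while clusters 10 and 13 held 55.6% and 50% of Nr4a1 UMIs (5 and 4 UMIs). The turn from clusters 11 and 12 to clusters 10 and 13 was thus seen for Ly6c2 in the infiltrating libraries, where the latter held 75.6%, 98.6% and 98.9% of its UMIs in D10_infiltrating 1, D10_infiltrating 2 and D21_infiltrating 1.

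**Figure D4:**
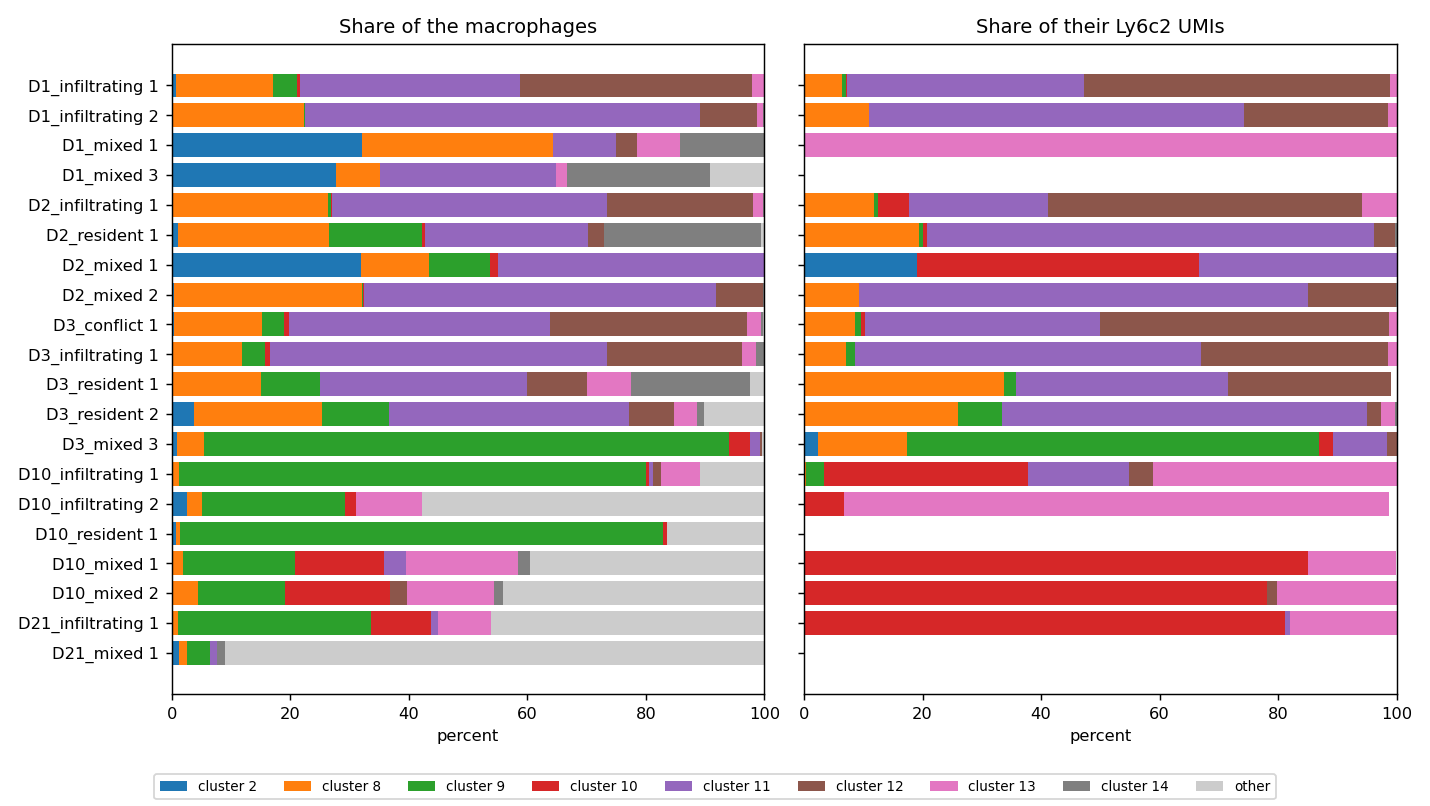
For each library, the share of macrophages in each deposited cluster (left, percent) and the share of macrophage Ly6c2 UMIs those cells held (right, percent); bars are empty where no UMI was counted. Clusters 11 and 12 fill most of the right-hand bars from D1 to D3 (D1_mixed 1, with 2 UMIs, D2_mixed 1 and D3_mixed 3 apart), and clusters 10 and 13 most of them at D10 and D21.

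For the gene lists at D10 against D1, the share of all genes called was 14.4%, with 7.31% higher and 7.04% lower. Of 10 classical monocyte genes, all tested, 1 rose and 1 fell in edgeR: Mgst1 (a glutathione transferase) rose by 1.41 (SE 0.43, adjusted p = 0.0439) and Fn1 (fibronectin) fell by 3.19 (SE 0.67, adjusted p = 0.00927) on the log2 scale. These 2 of 10 are near the share of all genes. The median log2 change was -1.0 over the list and 0.01 over all genes. Of 10 non-classical genes 4 rose, Cd300e by 4.18 (adjusted p = 0.035), Spn by 2.98 (0.0183), Pou2f2 by 2.27 (0.00372) and Eno3 by 1.95 (0.0454, groups overlapping) in edgeR, with a list median of 2.11; Ace, Treml4, Itgal, Pglyrp1, Ear2 and Adgre4 did not pass. Of 16 tested immediate early genes 7 fell, among them Dusp1, Ier3, Jun and Klf6, with Dusp1 at 12.5 CPM (SD 4.0) against 289 CPM (SD 248). Of 10 maturation genes 2 rose, Apoe and C1qa, and 1 fell. Of 8 tested microglia markers 4 rose (Gpr34, Olfml3, Tmem119 and P2ry12), the last 2 with overlapping groups, and the part of microglia RNA in the other values was not tested. The remaining lists gave at most 2 called genes each. Clusters 10 and 13 made up 7.10% to 34% of the D10 macrophages in these libraries and 0.955% to 7.14% of the D1 ones; their part in these list counts was not tested. At D3 none of the lists had a called gene, and at D21, where 3.56% of all genes were called and 1.61% were lower, classical genes gave 2 of 10 lower (Chil3 and Fn1) and non-classical genes none of 10.

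In microglia the members were low at every time point in the resident and mixed libraries, with single libraries above the rest. Plac8 reached 14.8 CPM in D2_mixed 2 (23 microglia) and 13.5 CPM in D3_resident 2. Hp reached 9.28 CPM in 1 D1 library, against 0.285 and 0.438 CPM in the others of D1. Ly6c2 gave 44 cells with a UMI among 13289 and was not tested. In Ctrl_mixed 1 and Ctrl_resident 1 Plac8 was 1.61 and 4.85 CPM, Hp 0.893 and 0.539 CPM and Nr4a1 1.07 and 0.539 CPM. Between Ctrl and D1, D3 or D10 no member passed in edgeR, with adjusted p from 0.193 (Plac8 at D1, log2 change -1.99, SE 1.22) to 0.896 (Plac8 at D3). Of 10801 genes 46.6%, 37.6% and 10.3% passed in these comparisons. The Ctrl libraries shared no sequencing pool with those of D1 or D3. At D1 an effect of the pool cannot be told apart from one of time, and at D3 255 genes were called with the pool as a term. Of the 7 tested genes of the classical monocyte list, 3 were higher at D1, 6 at D3 and 3 at D10 in these microglia sums and none lower (list medians 3.13, 4.17 and 2.83 on the log2 scale), where 23.9%, 20.1% and 8.06% of all genes were higher; the part of monocyte RNA in the member values was not tested. The 3 tested members had 1 to 43 UMIs per time point over the groups compared, so a change was not detectable at this depth unless large.

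The sort was tested over all cells of the 7 infiltrating and 5 resident libraries, with time and sex as terms. With time as a term the sort effect rests on the times that hold both sorts, D2 (1 infiltrating and 1 resident library), D3 (1 and 2) and D10 (2 and 1), 4 libraries against 4. Hp in the infiltrating libraries ran from 82.7 through a median of 209.8 to 499 CPM. In the resident libraries it was 0.539 CPM in Ctrl_resident 1, 14.8 in D2_resident 1, 37.7 in D3_resident 1, 31.8 in D3_resident 2 and 2.70 in D10_resident 1. The infiltrating libraries of the shared times had 499 CPM at D2, 162 CPM at D3 and 82.7 and 115 CPM at D10, above the resident ones of the same day each time. Hp was higher in the infiltrating sort by 3.98 on the log2 scale (SE 0.65, edgeR adjusted p = 0.00837). Nr4a1 ran from 4.89 through a median of 16.1 to 21.5 CPM in infiltrating libraries and from 0.539 through 2.10 to 9.43 CPM in resident ones. Within the shared times it was 7.62 against 1.15 CPM at D2, 16.1 against 9.43 and 2.58 CPM at D3, and 17.7 and 21.1 against 2.10 CPM at D10. It was higher by 2.44 (SE 0.51, edgeR adjusted p = 0.0206), with D3_resident 1 inside the range of all infiltrating libraries. A fit of those 3 times alone was added after the values were seen. It rests on the same 4 against 4 libraries and is therefore no second test. Both genes passed in it (Hp 3.96, edgeR adjusted p = 0.00405, and Nr4a1 2.42, edgeR adjusted p = 0.00846). Of 10074 genes 10.7% were called, 5.02% higher and 5.67% lower in the infiltrating sort.

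Ly6c2 and Plac8 did not pass. Ly6c2 was 76.2 to 477 CPM in infiltrating and 0 to 131 CPM in resident libraries (edgeR adjusted p = 0.201, log2 change 2.17, SE 0.99). Plac8 was 278 to 1228 CPM in infiltrating and 0 to 304 CPM in resident ones (edgeR adjusted p = 0.136, log2 change 3.19, SE 1.24). Resident libraries of D2 and D3 were high in both genes, with Plac8 at 98.2 CPM in D2_resident 1, 304 CPM in D3_resident 1 and 254 CPM in D3_resident 2, while D10_resident 1 had no UMI of either gene, which allows up to 0.90 CPM. In the macrophages of the resident sort Ly6c2 reached 357 CPM in D2_resident 1, 267 CPM in D3_resident 1 and 370 CPM in D3_resident 2, against 104 CPM in D2_infiltrating 1 and 464 CPM in D3_infiltrating 1, the single infiltrating library of each day. The resident value was the higher one at D2, and both were the lower ones at D3. Macrophages made up 7.45% to 25.2% of the resident libraries of D2, D3 and D10.

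Within a sequencing pool and time point the sort could be compared in 2 pairs of libraries. At D3 the ratio of infiltrating to resident CPM was 2.58 for Ly6c2, 4.20 for Plac8, 5.09 for Hp and 6.24 for Nr4a1. At D10 it was 30.6 for Hp and 8.44 for Nr4a1, from 9 and 7 UMIs in D10_resident 1, and the other 2 genes were at 0 in that library. With the pool as a term, Hp and Nr4a1 still passed (log2 changes 3.15 and 2.70, edgeR adjusted p = 0.0193 and 0.00896).

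The sort went with cell makeup. Microglia were 67.9% to 100% of resident and 0.253% to 26.5% of infiltrating libraries, and all 9 microglia markers were lower in the infiltrating sort. Of 10 macrophage maturation genes 5 were lower, among them C1qa by 3.65, C1qb by 2.58 and Trem2 by 2.13 on the log2 scale (list median -1.34). The list counts here stand against 5.02% of all genes higher and 5.67% lower. Of 10 classical monocyte genes 4 were higher (among them Ccr2, Ifitm6 and Ms4a4c; list median 2.63), of 10 non-classical genes Ace was higher (list median 2.56), and of 17 tested immediate early genes 4 were higher and 1 lower, against a median of 0.02 over all genes. Neutrophil-like cells made up to 28.1% of infiltrating libraries (D2_infiltrating 1) and 0% to 3.14% of resident ones; no gene of the neutrophil list passed among 6 tested. Dendritic-like cells made up 6.35% to 43.4% of infiltrating and 0% to 3.77% of resident libraries. Of 5 tested dendritic cell genes 2 were higher, Cd209a (a lectin) by 5.63 and Itgax (the integrin CD11c) by 1.58 (list median 2.99), and both tested progenitor genes, Kit and Prtn3, were higher by 3.68 and 2.18. The part of cell makeup in the Hp and Nr4a1 differences was not tested. With D3_conflict 1 counted as resident neither gene passed (edgeR adjusted p = 0.171 and 0.117), and 0 genes were called in all. With it counted as infiltrating, 1619 genes were called. Leaving out D2_infiltrating 1 or D2_resident 1 ended both calls, and leaving out D3_infiltrating 1, D3_resident 2 or D10_resident 1 ended that of Nr4a1. Without D10_resident 1, Plac8 passed (log2 change 1.78, edgeR adjusted p = 0.0449).

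**Figure D5:**
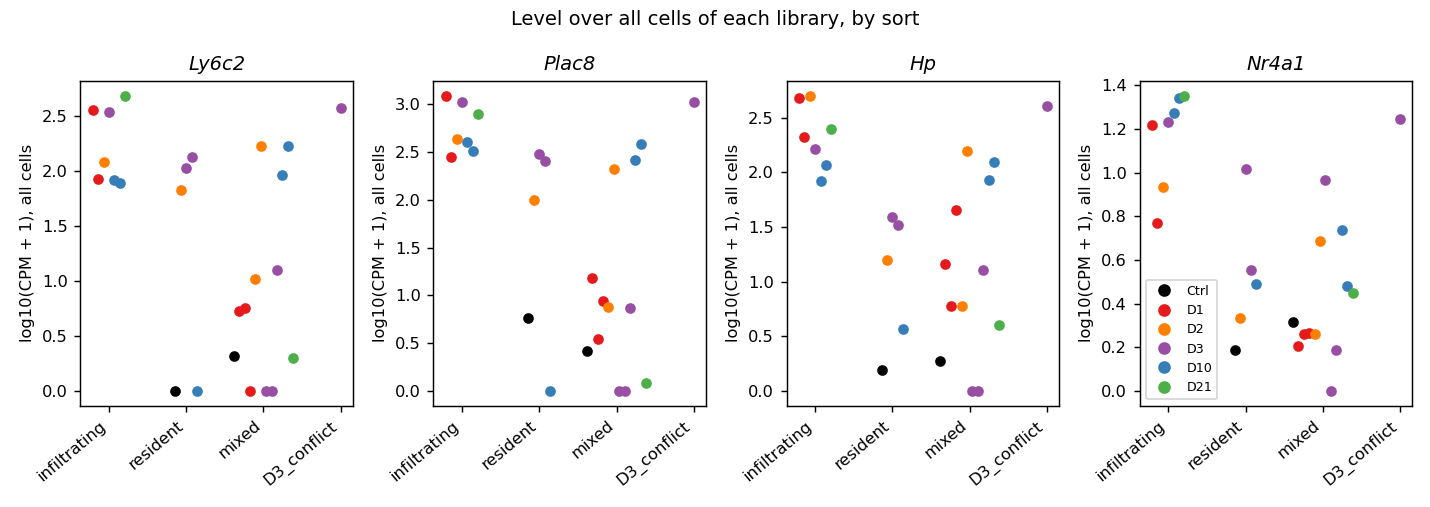
Level of each gene over all cells of each of the 25 libraries, as log10(CPM + 1), by sort and coloured by time point. Infiltrating points for Hp lie above all resident points; mixed libraries span the range, and D3_conflict 1 lies with the infiltrating libraries.

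D3_conflict 1 had Ly6c2 at 373 CPM, Plac8 at 1064 CPM, Hp at 399 CPM and Nr4a1 at 16.6 CPM over all its cells, each within the range of the 7 infiltrating libraries; Ly6c2, Plac8 and Hp lay above all 5 resident libraries, and so did Nr4a1 (highest resident 9.43 CPM). Of its 3800 cells 0.211% were microglia and 62.3% macrophages. Which of its labels is right was not decided here.

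The genes whose pattern was most like that of each member were listed by Pearson's r of log2(CPM + 10). This is a description over points that share libraries. Over the 16 clusters and 8886 genes, Ly6c2 was most like Plac8 (r = 0.97), Emb, Napsa, Mndal and Gda (0.94 to 0.96). Plac8 was most like Ly6c2, Mvd, Ms4a4b, Gpr141 and Mndal (0.93 to 0.97). Hp was most like Trem3 (0.98), Ncf4, Rara, H2afj and Slpi. Nr4a1 was most like Arhgef37 (0.97), Nxpe4, Treml4, Adgre4 and Serpinb2. Between members, r was 0.89 for Ly6c2 with Hp, 0.83 for Plac8 with Hp, and 0.60 to 0.68 for Nr4a1 with the others. Over the 15 macrophage sums of the time comparison and 8577 genes, Ly6c2 was most like Smchd1 (0.93), Pdlim1, Cenpa, Lmnb1 and Cdkn2d, of which Cenpa encodes the centromere histone and Lmnb1 a lamin; among the 5 genes most like Plac8 were Cytip (0.94), Gpr141, Ifitm6 and Clec4a3; among the 5 most like Hp were Gmfg, Sub1, C3 and Cdk2ap2; and Nr4a1 was most like Ace (0.91), Ceacam1, Pglyrp1, Adgre4 and Tmem173. Nr4a1 was the member accompanied by non-classical list genes in both settings.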

How the data were processed

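Per the submitters' processing notes, the authors used Cell Ranger 3.1.0 and GRCm38; the deposited tables hold raw UMI counts per gene and cell, and the authors' deposited table gives each cell's cell type and cluster code. Counts were summed per library and cell type or cluster, and CPM is a gene's count per 1000000 UMIs of that sum. The authors' deposited table also gives the percent of mitochondrial counts of each cell, which no result uses. Sums of at least 20 cells entered the comparisons. Tests used edgeR 4.0.16 (TMM, filterByExpr, quasi-likelihood test, 2-sided, Benjamini-Hochberg adjustment over all tested genes, threshold 0.05) with time and sex as terms, and sort for that comparison; DESeq2 1.42.0 was an alternative, and the scripts were tested on simulated data. Likeness is Pearson's r of log2(CPM + 10). The members and gene lists were chosen with earlier results of these data known. Genes named are the members, their close relatives, the 5 genes most like each member and, per list and comparison, at most 4 called genes with the largest change. Markers, cluster leading genes and genes of the cluster 13 split are named as descriptions, the last after their values were seen. Doublets were not called and free RNA was not removed. The sex term used the labels; 1 library (D2_infiltrating 1) is labelled female but carries the deposited code of the males. D2 stands in the labels and not in the design text. The replicate numbers of the titles were not used as a pairing in the main tests, and whether they pair libraries is not known. Some genes that the rule would name are not reported here.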

Additional observations from a re-analysis of the deposited data

Results flagged for a closer look

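Of 20 groups of 4 to 10 libraries checked for a library that stands apart, 5 held one; chance gives about 1 in 20 independent groups, and these groups share libraries and are not independent. In macrophages at D1, Plac8 in D1_infiltrating 1 was 1213 CPM, far above the other 3 libraries. In microglia at D3, D3_resident 2 stood above the other libraries for Ly6c2 (2.89 CPM) and Plac8 (13.5 CPM), and D3_mixed 1 for Nr4a1 (8.24 CPM). The Ly6c2 and Nr4a1 values are 6 and 4 UMIs with all other libraries at 0, so any UMI would have stood apart there. Over all cells of the resident sort, D3_resident 1 stood above the others for Nr4a1 (9.43 CPM).

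D3_conflict 1, which entered no test between groups, had all 4 genes above the higher of the 2 Ctrl libraries. Ly6c2 was at 373 against 1.07 CPM, Plac8 at 1064 against 4.85 CPM, Hp at 399 against 0.893 CPM and Nr4a1 at 16.6 against 1.07 CPM. Both Ctrl libraries were 100% microglia and D3_conflict 1 was 0.211% microglia. The part of cell makeup in these differences was not tested.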

How the results depend on the processing

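Values are log2 changes in edgeR unless said. In macrophages at D3 against D1, the sequencing pool as a term gave -4.45, -7.03, -4.32 and -3.79 for Ly6c2, Plac8, Hp and Nr4a1, none called. Ly6c2 was -0.73 without cluster 2, -0.71 with at least 50 cells and -0.50 with sort as a term. Plac8 was -4.68 (adjusted p = 0.00171) and Hp -3.80 (adjusted p = 0.00749) in mixed libraries alone. With D3_conflict 1 as infiltrating, Plac8 was 0.53 and Nr4a1 0.26; without clusters 10 and 13, Plac8 was 0.11. At D10, mixed libraries alone gave 8.21, 4.0 and 1.62 for Ly6c2, Plac8 and Hp, called in that setting; without clusters 10 and 13 the values were -2.12, -0.84 and -2.63. Hp was -0.39 without cluster 2 and -0.36 with at least 50 cells. At D21, Plac8 was -0.020 with the pool term, -0.34 without cluster 2 and with at least 50 cells, -1.52 with sort as a term and -0.90 with D3_conflict 1 added and sort as a term. Mixed libraries alone gave -4.61, -9.49, 1.14 and -1.15 for Ly6c2, Plac8, Hp and Nr4a1, and leaving out clusters 10 and 13 gave -3.52 for Ly6c2 and -2.39 for Plac8. At D2, Ly6c2 was 5.84 (adjusted p = 0.00445) and Plac8 0.48 in mixed libraries alone, and Ly6c2 was 0.88 with sort as a term and 1.11 with D3_conflict 1 added as well. Fitted changes against libraries at 0 UMIs, such as -9.49, are no bounds.

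In microglia against Ctrl, the pool term gave -7.69, 3.35 and -1.16 for Plac8, Hp and Nr4a1 at D3 and -0.76 for Hp at D10. Mixed libraries alone gave 1.09 for Nr4a1 at D1, and -9.31 for Plac8 and 0.20 for Hp at D3. Sort as a term gave -0.10 for Hp at D10, and DESeq2 -0.23 for Plac8 at D3. For the sort, Hp was 3.37 and Nr4a1 2.08 with D3_conflict 1 as resident. The mean share of macrophages with a UMI in infiltrating libraries, without thinning, was 27.4% for Ly6c2, 32.0% for Hp and 7.74% for Nr4a1, and 3.60% for Nr4a1 at 2000 UMIs.

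Pairing by replicate number was checked in the mixed microglia sums of D1 and D3 alone, which cannot exclude it. Correlations of same-numbered sums were -0.002, 0.154 and 0.137, and numbers 2 and 3, not 1, matched best with their own. With the replicate block, Plac8 was -0.10 and Hp -0.80 at D10, Plac8 -1.17 at D21 and Hp in microglia -0.93 at D1; called genes numbered 834 at D10, 339 at D21 and 4758, 4013 and 1039 in microglia.

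Leaving out each library in turn gave, at D3, -3.48 to 2.21 for Ly6c2, -6.44 to 1.16 for Plac8, -4.60 to -0.66 for Hp and -3.80 to 0.91 for Nr4a1, and at D10 0.57 to 3.89 for Ly6c2, 0.79 to 3.13 for Plac8, -0.36 to 1.22 for Hp and 0.80 to 2.17 for Nr4a1. At D21 the ranges (all 4 lowest without D21_infiltrating 1) were -13.07 to 3.32, -15.01 to 1.66, -2.46 to 0.49 and -9.63 to 1.90 for Ly6c2, Plac8, Hp and Nr4a1, and at D2 (highest without D1_infiltrating 1) -1.05 to 3.42, -2.31 to 1.96, -2.04 to 0.65 and -1.89 to 0.088. In microglia they were -2.31 to 3.27 for Hp at D1, -3.30 to 0.70 for Plac8 and -4.84 to 0.75 for Hp at D3, and -3.29 to 2.33 for Hp at D10. For the sort they were 1.02 to 3.25 for Ly6c2, 1.78 to 4.96 for Plac8, 3.20 to 5.14 for Hp and 1.86 to 2.90 for Nr4a1.

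Over all settings, called genes in macrophages numbered 0 to 860 at D3, 376 (without D1_infiltrating 2) to 1783 at D10 and 14 (without D21_infiltrating 1) to 781 at D21, in microglia 1206 to 5398, 255 to 4501 and 71 to 2404 at D1, D3 and D10, and for the sort 0 (D3_conflict 1 as resident) to 1619. The pool term could not be fitted for macrophages at D10 or microglia at D1.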
